A study of Mus musculus with 8 samples.

Results

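The nuclear genes of the mitochondrial respiratory chain and ATP synthase were followed on 8 arrays of whole mouse liver. They were all genes with a named probe whose current symbol begins with Ndufa, Ndufb, Ndufc, Ndufs, Ndufv, Uqcr, Cox4 to Cox8 or Atp5, or is 1 of the 4 Sdh genes. This gave 92 of the 19751 named genes, on 123 of 39429 probes, of which 82 encode subunits and 10 encode assembly factors or related proteins. By complex there were 36 genes of complex I, 4 of complex II, 8 of complex III, 18 of complex IV and 16 of complex V. After a filter on dim probes 90 of the 92 were among the 15834 genes tested. The 2 left out, Cox7b2 and Cox8c, are testis isoforms of complex IV subunits, and neither was well above background on any array. Subunits that the mitochondrial genome encodes are not analysed here.

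The study asks how loss of Keap1 acts in mouse livers that carry cancer drivers. In AKP::Keap1 mice an activated oncogene and mutant p53 (R172H), whose expression is liver-specific, are combined with a Keap1 deletion. AKP mice have the same oncogene and p53 alleles without that deletion, so no group is free of the drivers. There were 2 AKP::Keap1 males, 2 AKP males, 2 AKP::Keap1 females and 2 AKP females, with 1 array per mouse; ages and the promoter that drives the alleles are not given in the sources used here. Keap1, the adaptor that marks the transcription factor Nrf2 for degradation, was lower on all 4 AKP::Keap1 arrays than on any AKP array. Its log2 difference was -2.85 ± 0.11 (SE of the limma fit, adjusted p = 0.00018).

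The respiratory chain passes electrons from NADH (complex I) and succinate (complex II) through ubiquinone to complex III, on to cytochrome c and then to oxygen at complex IV. The protons pumped on the way drive ATP synthase, complex V. Hepatocytes are rich in mitochondria and use the chain to power urea synthesis, gluconeogenesis and fat oxidation, whereas bile duct epithelium holds fewer mitochondria. Several complex IV subunits have tissue isoforms, such as Cox6a2 and Cox7a1 of heart and skeletal muscle and Cox4i2 of lung, which is induced by low oxygen.

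On each array 65.7% to 70.7% of spots stood well above background, with no saturation. Levels below are log2 signals relative to the array's own 75th percentile, and differences are AKP::Keap1 minus AKP. A gene is called when the adjusted p of limma, a linear model with spreads moderated across genes, is below 0.05. All 12 hepatocyte markers passed the filter on dim probes, and their summed linear signal was 1507 to 2706 per array in units of that percentile. The livers also differed in the RNA of markers of other cells. Of 12 biliary markers, 10 rose in AKP::Keap1 livers of each sex, where 16.4% of all genes rose in males and 12.5% in females. The summed signal of the 12 was 74.4 to 86.2 in AKP::Keap1 males against 7.88 to 9.18 in AKP males. In females it was 38.2 to 84.2 in AKP::Keap1 and 3.57 to 9.30 in AKP livers. In bulk tissue, fewer cells of a type and less RNA per cell cannot be told apart. Each of the 4 slides held 1 group, and the 2 sexes were scanned on different days, so slide and group cannot be told apart.

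Respiratory chain genes were lower in AKP::Keap1 males than in AKP males, across all 5 complexes. Of the 90 genes, 52 fell and 2 rose in males, where 12.5% of all genes tested fell and 16.4% rose. The median log2 difference of the 80 subunits tested was -0.58 in males, beside -0.04 over all genes. On both AKP::Keap1 male arrays 82 of 90 genes (91.1%) lay below both AKP male arrays, against 39.3% of all genes, and 3 lay above, against 34.1%. In females the same genes did not fall: 4 rose, where 12.5% of all genes rose, and 0 of 90 fell, where 8.93% of all genes fell. At an unadjusted limma p below 0.05 the female counts were 18 higher and 1 lower, against 3511 and 2541 of all 15834 genes. The median in females was 0.19, beside 0.06 over all genes. On both AKP::Keap1 female arrays 40 of 90 genes lay above both AKP female arrays, against 37.1% of all genes, and 4 lay below, against 28.0%.

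**Figure D1:**
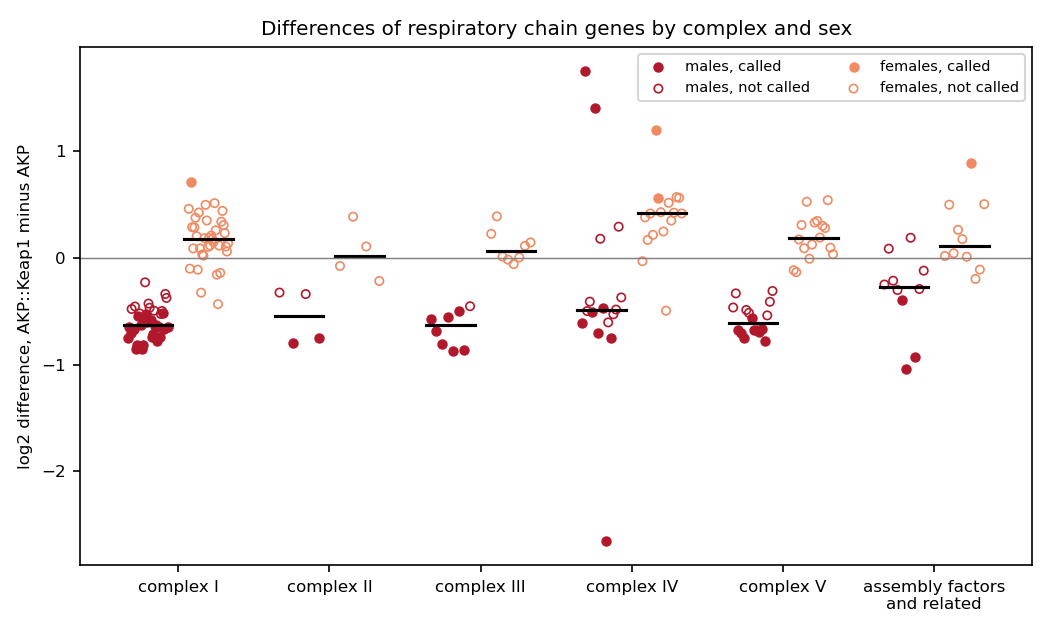
Log2 difference AKP::Keap1 minus AKP of each of the 90 genes tested (points), by complex, in males (left in each pair) and females (right), under scaling by the 75th percentile. Filled points are called, and bars are medians. All points of complexes I, II, III and V lie below 0 in males, while in females they spread around or above 0.

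Seen array by array, AKP males stood above the other 3 groups. The median deviation of the 80 subunits from each gene's mean over 8 arrays was -0.18 and -0.18 on the AKP::Keap1 male arrays, against 0.50 and 0.27 on the AKP male arrays. In females it was 0.16 and -0.15 in AKP::Keap1 livers and -0.09 and -0.25 in AKP livers. The female genotypes thus overlapped, and the male genotypes did not. Over all genes the same medians lay between -0.07 and 0.03. They were not computed for equally bright genes or under other scalings.

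**Figure D2:**
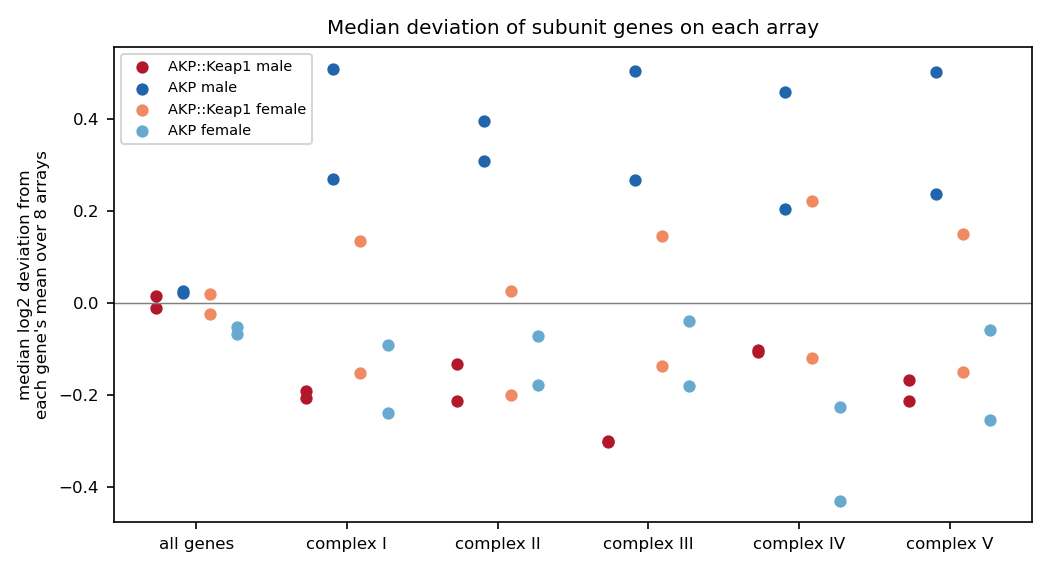
Median log2 deviation of the genes of each complex from their own means over the 8 arrays, 1 point per array, with all 15834 genes at the left. For complexes I, II, III and V the 2 AKP male arrays lie above every other array, and for complex IV 1 AKP::Keap1 female array (0.22) lies above the lower AKP male array (0.21).

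The size of the fall in males depended on how the arrays were scaled. Respiratory chain genes are bright, and 68 of the 80 subunits were among the 1584 brightest genes when all genes were ranked by mean signal into 10 equal bins. In that bin the median male difference of all genes was -0.37, whereas in the dimmest bin it was 0.66. Of the 68 subunits in that bin 41 fell in males, against 26.6% of its genes. Quantile scaling, which gives every array the same distribution, moved the median of the brightest bin to -0.03 and that of its 68 subunits to -0.23. Cyclic loess, which removes trends with brightness and was chosen after this trend was seen, gave -0.0025 for that bin and -0.21 for the subunits. Of the 68 subunits 5 fell with quantile scaling, against 4.42% of the bin, and 2 fell with cyclic loess, against 3.6%, so under these scalings the share of subunits called was near that of equally bright genes. The median of the subunits was below that of the whole bin under each of the 3 scalings. The calls in males were 13 lower and 2 higher with quantile scaling, where 9.18% of all genes fell and 11.1% rose, and 10 lower and 2 higher with cyclic loess, where 6.97% fell and 13.4% rose. The female calls were 5 higher and 2 lower with quantile scaling (11.2% and 10.7% of all genes), and 5 higher and 1 lower with cyclic loess (12.0% and 9.92%). Shares of all genes called with an array left out are not given, so the counts that follow have no such comparison. The genes that fell in males numbered 3 without AKP::Keap1 male 1, 2 without AKP::Keap1 male 2, 2 without AKP male 1 and 6 without AKP male 2, against 40 to 50 without any 1 female array. The genes that rose in females numbered 1 without AKP::Keap1 female 1 or AKP female 2, 2 without AKP::Keap1 female 2, AKP female 1 or either AKP::Keap1 male, and 3 without either AKP male.

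**Figure D3:**
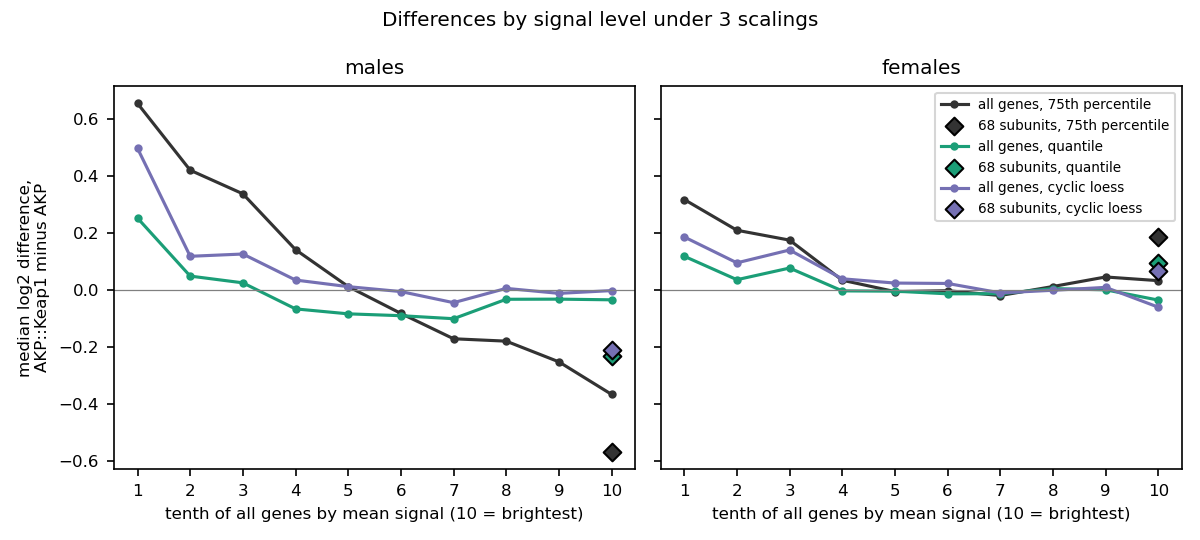
Median log2 difference AKP::Keap1 minus AKP in 10 bins of all genes ranked by mean signal (lines), with the median of the 68 subunits in the brightest bin (diamonds), under 3 scalings. In males the black line runs from 0.66 in the dimmest bin to -0.37 in the brightest, the other 2 lines end near 0, and the subunits lie below their line under all 3.

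**Figure D4:**
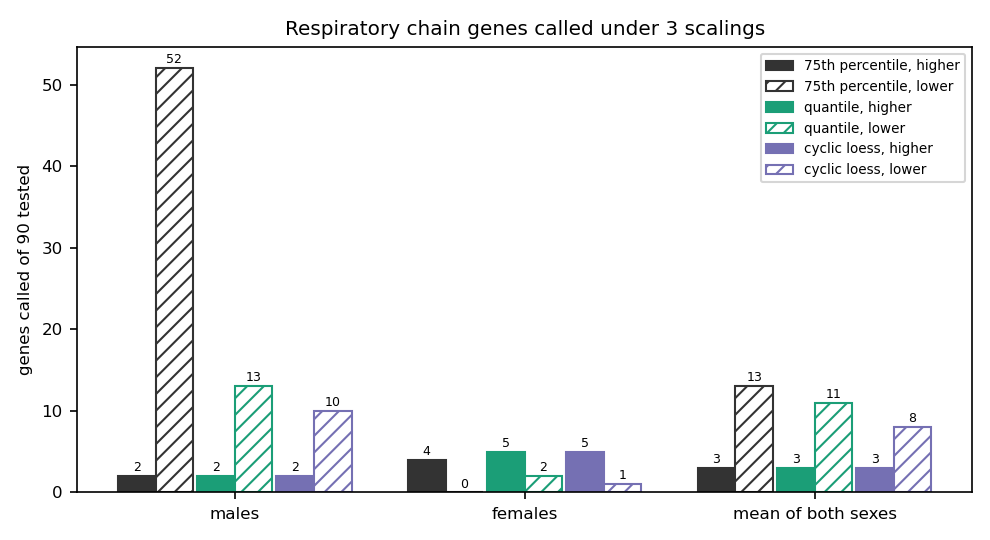
Number of the 90 genes called higher (solid bars) and lower (hatched bars) in AKP::Keap1 livers under 3 scalings, in males, in females and for the mean of both sexes. In males 52 genes fell under the 75th percentile, 13 under quantile scaling and 10 under cyclic loess, while every other count changes by at most 5.

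In males 10 genes fell under all 3 scalings, among them Cox6b1, Cox7a1, Ndufa11, Ndufa6, Ndufab1, Ndufaf4, Ndufaf6, Ndufb10 and Ndufs8. Averaged over both sexes, 13 genes fell and 3 rose, where 17.4% and 21.7% of all genes did. With quantile scaling 11 fell and 3 rose (18.0% and 18.7% of all genes), and with cyclic loess 8 fell and 3 rose (15.3% and 21.3%). The 3 that rose, Cox4i2, Cox6a2 and Ndufaf5, did so under all 3 scalings. Of the 13 that fell, 8 did so under all 3, among them Cox7a1, Ndufa6, Ndufa9, Ndufaf4, Ndufaf6, Ndufb10 and Sdhd.

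Promoter sequence is shown for 5 of these genes, as examples of the windows searched for binding motifs of known regulators of respiratory genes. RefSeq windows of build GRCm38.p6 matched 75 of the 92 genes by symbol, out of 27025 genes in the table, and the 250 bases before the start were read. Capitals mark matches on either strand to GCGC, any 2 bases, then GCGC, the palindromic site of nuclear respiratory factor NRF1, to CCGGAAG, an ETS site as bound by GABPA, or to TGACNNNGC, the antioxidant response element through which Nrf2 acts. The windows are given 5′ to 3′ on the gene's strand. They are Sdhd (chr9:50603850-50604099, minus strand), Ndufaf4 (chr4:24897833-24898082, plus strand), Ndufa11 (chr17:56717512-56717761, plus strand), Cox6b1 (chr7:30626115-30626364, minus strand) and Cox7a1 (chr7:30183921-30184170, plus strand).
Sdhd: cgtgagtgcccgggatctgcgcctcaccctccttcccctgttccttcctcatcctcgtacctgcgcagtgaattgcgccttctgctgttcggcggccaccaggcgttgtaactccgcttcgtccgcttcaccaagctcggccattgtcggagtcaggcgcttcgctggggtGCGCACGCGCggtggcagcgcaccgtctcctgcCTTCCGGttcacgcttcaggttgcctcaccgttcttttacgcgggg
Ndufaf4: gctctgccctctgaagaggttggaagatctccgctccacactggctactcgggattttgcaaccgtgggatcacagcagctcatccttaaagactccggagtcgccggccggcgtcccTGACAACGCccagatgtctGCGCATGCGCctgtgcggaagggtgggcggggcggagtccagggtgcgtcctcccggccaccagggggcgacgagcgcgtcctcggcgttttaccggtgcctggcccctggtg
Ndufa11: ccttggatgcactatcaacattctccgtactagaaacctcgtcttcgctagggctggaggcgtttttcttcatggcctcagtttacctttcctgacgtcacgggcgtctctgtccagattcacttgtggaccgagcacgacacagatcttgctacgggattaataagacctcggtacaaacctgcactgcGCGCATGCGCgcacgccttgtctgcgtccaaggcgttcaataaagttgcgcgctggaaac
Cox6b1: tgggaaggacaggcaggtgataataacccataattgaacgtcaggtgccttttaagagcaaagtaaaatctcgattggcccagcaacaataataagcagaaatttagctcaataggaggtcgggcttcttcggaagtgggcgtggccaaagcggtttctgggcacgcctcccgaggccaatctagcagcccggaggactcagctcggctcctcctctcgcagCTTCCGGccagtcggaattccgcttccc
Cox7a1: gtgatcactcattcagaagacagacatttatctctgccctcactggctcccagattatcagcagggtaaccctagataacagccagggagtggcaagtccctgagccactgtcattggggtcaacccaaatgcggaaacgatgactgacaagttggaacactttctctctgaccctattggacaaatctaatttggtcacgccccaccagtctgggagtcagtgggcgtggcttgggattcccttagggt
The NRF1 site occurred in Sdhd, Ndufaf4 and Ndufa11, the ETS site in Sdhd and Cox6b1, and the antioxidant response element in Ndufaf4 alone of these. Cox7a1 had no match to any of the motifs searched in this window.

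Across the 75 genes with a window, the NRF1 site occurred in 16 (21.3%), against 5.64% of all genes in the table. The ETS site occurred in 14 (18.7%), against 7.83%. The antioxidant response element occurred in 8 of 75, against 11.5% of all genes. Just 1 window each held AAGATGGCG, a YY1 site, and TCAAGGTCA, an ERR alpha site, against 0.71% and 0.422% of all genes. Among genes that fell in males under the 75th percentile scaling, the NRF1 site occurred in 10 of 43 and the ETS site in 11 of 43. Among those that did not fall these counts were 6 and 3 of 31. No match overlaps another in the 5 windows printed. A match is a description of letters and not a bound site. The table was not limited to genes tested on the arrays, and no set of equally bright genes was searched for comparison.

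Complex I oxidises NADH and hands its electrons to ubiquinone. All 36 genes had negative differences in males, between -0.86 and -0.23, and 25 fell, where 12.5% of all genes fell. In females 30 of the 36 differences were positive and only Ndufa11 rose. Averaged over both sexes 7 fell and 0 rose, with 0 higher and 12 lower at an unadjusted limma p below 0.05. Over all genes 17.4% fell, and 4193 of 15834 were higher and 3762 lower at that unadjusted p. The 7 included Ndufa9, Ndufa6, Ndufs4, Ndufb10, Ndufs1 and Ndufa10. With quantile scaling 7 of 36 fell in males, and with cyclic loess 6 did, against 9.18% and 6.97% of all genes.

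Ndufa9, a supernumerary subunit near the ubiquinone arm, was lower on all 4 AKP::Keap1 arrays than on any AKP array. Its levels were 3.88 and 3.79 in AKP::Keap1 males against 4.53 and 4.39 in AKP males, and 4.07 and 3.83 in AKP::Keap1 females against 4.34 and 4.22 in AKP females. The mean difference was -0.48 ± 0.10 (limma adjusted p = 0.012), and the call held with each array left out (adjusted p up to 0.045). Within males the difference of -0.63 was not called with quantile scaling (-0.33, adjusted p = 0.086) or cyclic loess (-0.31, adjusted p = 0.10).

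Ndufa6, another supernumerary subunit, carried its difference in males. Levels were 3.73 and 3.66 in AKP::Keap1 males against 4.62 and 4.40 in AKP males, and 3.94 and 3.83 in AKP::Keap1 females against 4.08 and 3.92 in AKP females. Groups overlapped in females only, with differences of -0.82 ± 0.13 in males (limma adjusted p = 0.011) and -0.11 ± 0.13 in females (adjusted p = 0.58). The male call was lost without AKP::Keap1 male 1, AKP::Keap1 male 2 or AKP male 1 (adjusted p = 0.050 to 0.069). Ndufs4, a supernumerary subunit needed for stable complex I, had levels of 3.89 and 4.16 in AKP::Keap1 males against 4.94 and 4.59 in AKP males. Its female levels were 4.10 and 3.83 in AKP::Keap1 against 4.19 and 4.02 in AKP livers. The males did not overlap and the females did. Its mean difference was -0.44 ± 0.13 (limma adjusted p = 0.040), and the call was lost with cyclic loess (0.051) and, at 0.060 to 0.12, without 6 of the 8 arrays, the exceptions being AKP male 2 and AKP::Keap1 female 1.

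Ndufa11, a membrane-arm subunit, went opposite ways in the 2 sexes. Its levels were 0.17 and 0.15 in AKP::Keap1 males against 0.94 and 0.77 in AKP males. Female levels were 0.18 and -0.06 in AKP::Keap1 against -0.48 and -0.81 in AKP livers. The AKP females were thus the lowest and the AKP males the highest, with both AKP::Keap1 groups between them. The difference was -0.70 ± 0.16 in males (limma adjusted p = 0.027) and 0.71 ± 0.16 in females (adjusted p = 0.030). Both calls held under the 3 scalings. The male call was lost without any 1 of the 4 male arrays, and the female call without either AKP::Keap1 male, AKP female 2 or either AKP::Keap1 female, with adjusted p up to 0.12 in males and 0.13 in females.

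Complex II, succinate dehydrogenase, also serves the citric acid cycle. On the probes used, Sdhd, a membrane anchor, was the only 1 of the 4 genes that fell over both sexes. Its levels were 4.47 and 4.32 in AKP::Keap1 males against 5.19 and 5.12 in AKP males, and 4.78 and 4.52 in AKP::Keap1 females against 4.95 and 4.78 in AKP females. No groups of the same sex overlapped, but in females the higher AKP::Keap1 array (4.7755) was close to the lower AKP array (4.7824). The mean difference was -0.49 ± 0.10 (limma adjusted p = 0.012), and 0.015 to 0.048 with 1 array left out. Its window, shown above, held an NRF1 and an ETS match.

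Sdhb, the iron-sulfur subunit, fell in males, with levels of 5.95 and 5.86 in AKP::Keap1 against 6.81 and 6.59 in AKP livers (difference -0.80 ± 0.19, limma adjusted p = 0.030). In females its levels were 6.28 and 6.06 in AKP::Keap1 against 6.03 and 5.55 in AKP livers (difference 0.38, adjusted p = 0.20). Neither male call of Sdhb and Sdhd held with quantile scaling (adjusted p = 0.11 and 0.062) or cyclic loess (0.16 and 0.070). Sdha, the flavoprotein, and Sdhc, the other anchor, had male differences of -0.33 and -0.34 that were not called (limma adjusted p = 0.12 and 0.11). A second, dimmer Sdhc probe had differences of -0.76 in males, -0.31 in females and -0.54 over both sexes. The Sdhc probe used had 0.10 in females and -0.12 over both. The second probe was not fitted on its own.

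Complex III passes electrons from ubiquinol to cytochrome c. All 8 genes had negative differences in males, between -0.88 and -0.45, and 7 fell, all but Uqcrq. Over all genes 12.5% fell in males. With quantile scaling 2 of 8 fell in males, against 9.18% of all genes. With cyclic loess 0 did, against 6.97%, and 3 were lower at an unadjusted limma p below 0.05. In females the 8 differences lay between -0.06 and 0.39 and 0 were called by limma, also at an unadjusted p below 0.05.

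Uqcrc2, a core protein, had levels of 4.43 and 4.17 in AKP::Keap1 males against 5.24 and 5.11 in AKP males. Female levels were 4.88 and 4.65 in AKP::Keap1 and 4.97 and 4.68 in AKP livers. The male groups lay far apart and the female groups interleaved. Its mean difference was -0.47 ± 0.12 (limma adjusted p = 0.025, and 0.061 with cyclic loess). The call was lost without AKP::Keap1 male 2, AKP male 1, AKP male 2, AKP::Keap1 female 2 or AKP female 1 (adjusted p up to 0.082). Uqcrb, a small ubiquinone-binding subunit, had a mean difference of -0.40 ± 0.11 (limma adjusted p = 0.034, and 0.065 with cyclic loess). Its male levels were 4.78 and 4.74 in AKP::Keap1 against 5.67 and 5.46 in AKP livers, and its female levels 5.24 and 4.98 in AKP::Keap1 against 5.23 and 4.97 in AKP livers. The males did not overlap and the females interleaved. The call was lost without any male array, AKP::Keap1 female 2 or AKP female 1 (adjusted p up to 0.096).

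Complex IV reduces oxygen, and it held the largest differences in either direction, all 3 in tissue isoforms. Of the 16 genes tested, 6 fell and 2 rose in males, where 12.5% of all genes fell and 16.4% rose. In females 2 rose, where 12.5% of all genes did. Over both sexes 2 rose and 1 fell, against 21.7% and 17.4% of all genes. With quantile scaling and with cyclic loess 2 fell and 2 rose in males. Over all genes 9.18% fell and 11.1% rose in males with quantile scaling, and 6.97% and 13.4% with cyclic loess. Of the 11 widely expressed subunits 5 fell in males under the 75th percentile: Cox4i1, Cox6a1, Cox6b1, Cox6c and Cox7b.

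Cox7a1, the heart and muscle isoform of subunit 7a, had the largest difference of all 90 genes. Its levels were -1.58 and -1.74 in AKP::Keap1 males, against 1.10 and 0.89 in AKP males. In females they were 0.12 and -0.54 in AKP::Keap1 livers, against 0.58 and -0.001 in AKP livers. The AKP::Keap1 males stood below all other 6 livers, whereas the female groups overlapped. The difference was -2.65 ± 0.28 in males, 6.30-fold lower (limma adjusted p = 0.0035), and -0.50 ± 0.28 in females (adjusted p = 0.25). The female difference minus the male difference was 2.16 ± 0.40 (adjusted p = 0.062), so a difference between the sexes was not called. Its widely expressed partner Cox7a2 had male levels of 4.34 and 4.48 in AKP::Keap1 against 5.19 and 4.85 in AKP livers, and was not called (difference -0.61, limma adjusted p = 0.069).

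Cox4i2, the lung and low-oxygen isoform of subunit 4, rose in males. Its levels were -0.56 and -0.40 in AKP::Keap1 males, against -2.04 and -2.42 in AKP males. Among females they were -1.83 and -2.00 in AKP::Keap1 livers, against -2.32 and -2.27 in AKP livers. No groups of the same sex overlapped, and the AKP::Keap1 males stood above all other livers. The difference was 1.75 ± 0.16 in males, 3.37-fold higher (limma adjusted p = 0.0025), and 0.38 ± 0.16 in females (adjusted p = 0.15). The difference between these 2 was -1.37 ± 0.23 (adjusted p = 0.052). Its partner Cox4i1 fell in males, with levels of 6.0 and 6.01 in AKP::Keap1 against 6.74 and 6.49 in AKP livers (difference -0.61 ± 0.16, limma adjusted p = 0.037). That call was lost with quantile scaling (-0.24, adjusted p = 0.16) and cyclic loess (-0.19, adjusted p = 0.25).

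Cox6a2, the heart and muscle isoform of subunit 6a, rose in both sexes. Its levels were -3.30 and -3.54 in AKP::Keap1 males against -4.82 and -4.84 in AKP males. Female levels were -3.22 and -2.91 in AKP::Keap1 against -4.22 and -4.30 in AKP livers. Every AKP::Keap1 liver lay above every AKP liver. The difference was 1.40 ± 0.15 in males (limma adjusted p = 0.0038) and 1.20 ± 0.15 in females (adjusted p = 0.0070), which is 2.46-fold higher over both sexes. Cox6a1, the common isoform, fell in males (-0.51 ± 0.15, limma adjusted p = 0.046), but its male difference was -0.01 with quantile scaling (adjusted p = 0.94) and -0.04 with cyclic loess (0.79).

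The calls of Cox7a1, Cox4i2 and Cox6a2 over both sexes and in males, and of Cox6a2 in females, held under every alternative tried for them, including each array left out. Of 9 muscle markers 7 (Myh1, Myh4, Ckm, Tnnt3, Actn2, Mb and Myl1) did not pass the filter on dim probes. Of the 2 that did, Acta1 rose in both sexes (1.43 ± 0.13 over both, limma adjusted p = 0.0014), but its male difference was not called with quantile scaling (0.78, adjusted p = 0.054). Of 6 brown adipocyte markers, Ucp1, Adipoq and Plin1 did not pass the filter, and Cidea alone of the other 3 rose (3.18 ± 0.39, limma adjusted p = 0.0026).

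**Figure D5:**
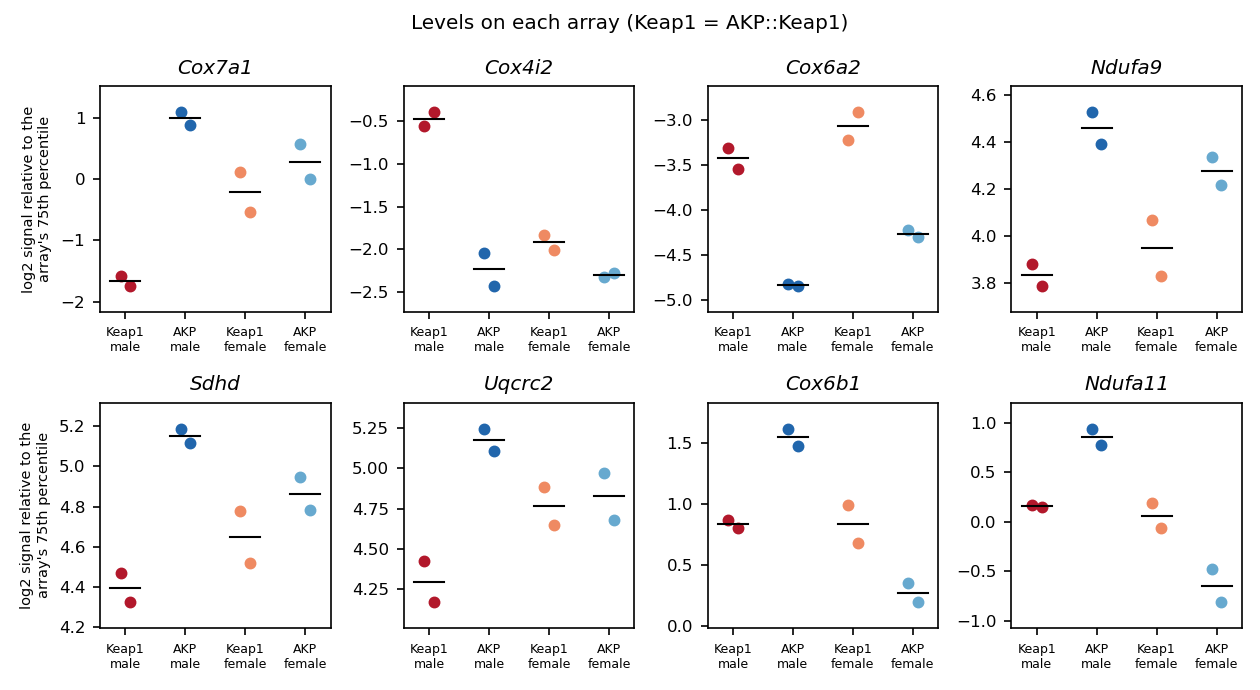
Levels of 8 genes on each of the 8 arrays (points; log2 signal relative to the array's 75th percentile), with group means as bars. In Cox7a1 and Cox4i2 the AKP::Keap1 males stand apart from all other livers, in Cox6a2 both AKP::Keap1 groups stand above both AKP groups, and in Cox6b1 and Ndufa11 the genotypes differ in opposite directions in the 2 sexes.

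Cox6b1, the common isoform of subunit 6b, behaved like Ndufa11. Its levels were 0.87 and 0.81 in AKP::Keap1 males against 1.62 and 1.47 in AKP males, and 0.99 and 0.68 in AKP::Keap1 females against 0.35 and 0.20 in AKP females. The difference was -0.70 ± 0.15 in males (limma adjusted p = 0.021) and 0.56 ± 0.15 in females (adjusted p = 0.044). The male call was lost without any 1 of the 4 male arrays (adjusted p up to 0.10), and the female call without any 1 of the 8 arrays (0.055 to 0.17). Its testis isoform Cox6b2 had levels of -3.59 and -3.61 in AKP::Keap1 males against -3.73 and -3.83 in AKP males, and female levels of -3.12 and -3.19 in AKP::Keap1 against -3.75 and -3.41 in AKP livers, with a mean difference of 0.30 over both sexes that was not called (limma adjusted p = 0.061).

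Of the remaining complex IV genes, Cox7b fell in males (-0.76 ± 0.16, limma adjusted p = 0.021), a call lost with quantile scaling (adjusted p = 0.060) and cyclic loess (0.064). Cox8a had differences of -0.49 in males (limma adjusted p = 0.070) and 0.57 in females (0.057), of which the female one was called with quantile scaling (0.040) and cyclic loess (0.047). Ndufa4, first described in complex I and now placed in complex IV, was not called in either sex (-0.37 and 0.41). Cox8b, the muscle isoform of subunit 8, was well above background on 3 of 4 AKP::Keap1 and 2 of 4 AKP arrays and was not called (limma adjusted p = 0.34).

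Complex V makes ATP. All 16 genes had negative differences in males, between -0.78 and -0.31, and 9 fell, where 12.5% of all genes did. By sector the 9 were 3 of 5 genes of the F1 head, 2 of 4 of the peripheral stalk and 4 of 7 of the membrane sector. Over both sexes 0 of 16 fell, against 17.4% of all genes, with 2 lower at an unadjusted limma p below 0.05. At that unadjusted p 3762 of all 15834 genes were lower. The median over both sexes was -0.21. With quantile scaling and with cyclic loess 0 of 16 fell in males, against 9.18% and 6.97% of all genes. At an unadjusted limma p below 0.05, 7 and 5 were lower, and the medians were -0.27 and -0.22. In females 13 of 16 differences were positive, the median was 0.18 and 0 were called by limma (2 higher at an unadjusted p below 0.05). Of all 15834 genes 3511 were higher in females at that unadjusted p.

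Atp5md, a small membrane subunit, had the largest male difference of complex V. Its levels were 4.91 and 5.05 in AKP::Keap1 males against 5.90 and 5.62 in AKP males, and 5.01 and 4.72 in AKP::Keap1 females against 4.76 and 4.41 in AKP females. The males did not overlap and the females did, with a male difference of -0.78 ± 0.19 (limma adjusted p = 0.030), which lost its call with quantile scaling (0.073) and cyclic loess (0.091). The catalytic subunit Atp5b had levels of 7.14 and 7.11 in AKP::Keap1 males against 7.55 and 7.37 in AKP males. Its male difference of -0.33 ± 0.14 was not called (limma adjusted p = 0.11), and it was 0.09 with quantile scaling (adjusted p = 0.59). Atpif1, the inhibitor of ATP synthase, lies outside the symbols chosen and was added after its values were seen. Its difference was 0.74 ± 0.12 over both sexes (limma adjusted p = 0.0057) and 1.09 in females (adjusted p = 0.011). In males it was 0.39 and not called (limma adjusted p = 0.12).

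Of the 8 complex I assembly factors among the 10 other genes, 3 fell in males and 1 rose in females, where 12.5% of all genes fell in males and 12.5% rose in females. Ndufaf4 had levels of 1.33 and 1.69 in AKP::Keap1 males against 2.61 and 2.50 in AKP males, and 1.15 and 1.07 in AKP::Keap1 females against 0.94 and 1.26 in AKP females. AKP males stood above all other livers, and the male difference was -1.04 ± 0.18 (limma adjusted p = 0.012). The call was lost without AKP::Keap1 male 1 or AKP male 1 (adjusted p up to 0.058). A second Ndufaf4 probe of nearly equal mean level (1.567 against 1.569) had differences of -1.22 in males and -0.52 in females. On the probe used the female difference was 0.01. The second probe was not fitted on its own. The Ndufaf4 window above held an NRF1 match and an antioxidant response element match.

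Ndufaf6 had levels of 0.95 and 1.0 in AKP::Keap1 males against 1.98 and 1.82 in AKP males, and 1.42 and 1.15 in AKP::Keap1 females against 1.52 and 1.45 in AKP females. Neither sex overlapped, and the mean difference was -0.56 ± 0.10 (limma adjusted p = 0.0071). Ndufaf5, which modifies the subunit Ndufs7, rose in females. Its levels there were 0.76 and 0.42 in AKP::Keap1 against -0.30 and -0.28 in AKP livers, a difference of 0.88 ± 0.16 (limma adjusted p = 0.016), beside 0.19 in males (adjusted p = 0.41). The female call was lost without AKP::Keap1 female 1, AKP female 1 or AKP female 2 (adjusted p up to 0.077). Ndufa4l2, the low-oxygen paralog of Ndufa4, and Cox7a2l, a factor of respiratory supercomplexes, were not called over both sexes (0.29 and -0.12, limma adjusted p = 0.092 and 0.45).

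The difference between the sexes' responses was tested directly. It was positive, that is, more positive in females, for 88 of 90 genes, with a median of 0.80 over the subunits beside 0.04 over all genes. Only 2 genes were called, Ndufa11 and Cox6b1, where 1.66% of all genes were (0.436% higher and 1.23% lower). At an unadjusted limma p below 0.05, 67 of 90 genes were higher and 1 lower, against 2076 and 1665 of all 15834 genes. With quantile scaling 0 genes were called (0.265% of all genes higher and 0.745% lower), and 35 were higher at an unadjusted limma p below 0.05. With cyclic loess 0 were called (0.303% and 1.02%), and 31 were higher at an unadjusted limma p below 0.05. The median of the subunits was 0.36 and 0.33. Female arrays were scanned on another day than male arrays.

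Between the sexes themselves, as female minus male over both genotypes, 9 genes were called, 8 lower and 1 higher in females, where 21.5% of all genes were called in either direction (19.0% with quantile scaling and 19.2% with cyclic loess). The largest was Ndufaf4 (-0.93 ± 0.12, limma adjusted p = 0.0087), followed by Ndufa11 (-0.80), Cox4i2 (-0.75), Atp5md (-0.64), Cox6b1 (-0.64) and Cox7a2 (-0.58). Ndufa1 and Ndufaf2 were also lower, and Cox6a2 was higher (0.46 ± 0.11, adjusted p = 0.033). Ndufaf4, Ndufa11, Cox4i2, Atp5md, Cox6b1 and Ndufaf2 kept their calls under all 3 scalings. The count was 9 without AKP::Keap1 female 1 and 3 to 5 without any other array. With the slide as a random block limma called 0 by sex, with adjusted p of 0.096 for Ndufaf4 and 0.17 for Ndufa11.

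Other mitochondrial genes also fell in males. The shares of all genes to set these lists against are 12.5% lower and 16.4% higher in males, and 8.93% lower and 12.5% higher in females. Of 18 electron carriers and ubiquinone synthesis genes, 10 fell and 0 rose in males (0 higher at an unadjusted limma p below 0.05), with a median of -0.57. They included Cyc1, the cytochrome c1 subunit of complex III (-0.82 ± 0.14, limma adjusted p = 0.012), and Etfb of the electron transfer flavoprotein (-0.73 ± 0.12, adjusted p = 0.010, and 0.059 with quantile scaling). Coq5, a ubiquinone methyltransferase, fell in both sexes (-0.61 in males and -0.81 in females). Of 13 citric acid cycle genes 10 fell in males and 3 in females. Idh3a, the catalytic subunit of isocitrate dehydrogenase, fell in both (-1.105 ± 0.14 and -1.12 ± 0.14, limma adjusted p = 0.0059 and 0.0069). With quantile scaling 2 citric acid cycle genes fell in males and 4 in females, and 4 and 2 carrier genes. The shares of all genes that fell were then 9.18% in males and 10.7% in females. With cyclic loess the citric acid cycle counts were 2 and 3 and the carrier counts 3 and 2, against 6.97% and 9.92% of all genes.

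Of 77 mitochondrial ribosomal protein genes 30 fell in males, against 10 with quantile scaling, and in females 5 rose and 2 fell. Over all genes 12.5% fell in males, 9.18% with quantile scaling and 6.97% with cyclic loess. In females 12.5% of all genes rose and 8.93% fell. Of 20 genes of the outer membrane, carriers and chaperones 10 fell in males, against 1 with quantile scaling. Mitochondrial content itself was not measured. Of these 20 genes 3 rose and 1 fell in females. The 36 assembly factors outside the chosen symbols had 13 that fell and 2 that rose in males, against 7 that fell with quantile scaling and 5 with cyclic loess. The 2 that rose were Cox17, a copper chaperone of complex IV (2.19 ± 0.20, limma adjusted p = 0.0024), and Bcs1l, which inserts the Rieske protein into complex III (1.08 ± 0.14, adjusted p = 0.0057). Cox17 rose in females too (1.66 ± 0.20, adjusted p = 0.0063).

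Among 16 regulators of mitochondrial genes 4 fell in males and 2 in females, where 12.5% and 8.93% of all genes fell. With quantile scaling 2 fell in males and 3 in females, where 9.18% and 10.7% of all genes fell. Ppargc1a, the coactivator of mitochondrial biogenesis, fell in males (-2.54 ± 0.42, limma adjusted p = 0.011, and 0.014 with quantile scaling). In females its difference was -1.21 (limma adjusted p = 0.086), and it was not called there under any of the 3 scalings. Its partner Esrra (-0.78 ± 0.15, adjusted p = 0.017) and Tfam, the packaging factor of mitochondrial DNA (-0.53 ± 0.12, adjusted p = 0.026), fell in males as well, but not with quantile scaling (0.053 and 0.097). Tfam fell in females with quantile scaling (-0.40, limma adjusted p = 0.045) and cyclic loess (-0.39, 0.047), and not with the 75th percentile (-0.36, 0.082). Of 12 Nrf2 target genes 10 rose in males and 11 in females, where 16.4% and 12.5% of all genes rose. The summed signal of the 12 was 289 to 307 in AKP::Keap1 males against 40.7 to 42.1 in AKP males.

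Markers of other cells moved beside these genes, and their part in the differences was not tested. Over all genes 12.5% fell and 16.4% rose in males, and 8.93% fell and 12.5% rose in females. In males 9.18% of all genes fell with quantile scaling and 6.97% with cyclic loess. Of 12 hepatocyte markers 7 fell in males, with a summed signal of 1607 to 1670 in AKP::Keap1 against 2365 to 2706 in AKP males, and 1 fell in females. With quantile scaling limma called 0 hepatocyte markers lower in males, and 3 were lower at an unadjusted p below 0.05. Neutrophil markers rose in 6 of 9 cases in males and 4 of 9 in females. Macrophage markers rose in 3 of 10 cases in each sex, and T, B and NK cell markers in 2 of 9 in males. Of 12 stellate and stromal markers 6 rose and 1 fell in males, and 5 rose and 1 fell in females. Endothelial markers fell in 2 of 10 cases in males and 3 of 10 in females. With quantile scaling and with cyclic loess limma called 0 of them lower in males, with 4 and 1 lower at an unadjusted p below 0.05. Proliferation markers rose in 6 of 8 cases in males and 8 of 8 in females, and 1 of 5 testis markers tested rose in females.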

How the data were processed

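Values are deposited intensity values per spot from 8 1-colour Agilent arrays, made per the file headers with Feature Extraction 10.7.3.1 and an mm9 annotation (version 10.1 per the submitters' processing notes). Per the labels, 500 ng of total RNA from whole liver was labelled for each mouse. The processed signal, already background-subtracted, was used. The deposited series matrix holds the same intensity values (355176 of 355176 equal within a relative tolerance of 1e-06). Control spots and spots marked as outliers were left out, spots of a probe were averaged on the log2 scale, and the array's 75th percentile was subtracted. Probes were named through RefSeq accessions (26055 of 39429). Probes not well above background on 2 or more of the 8 arrays were dropped, and 1 probe, the brightest on average, was kept per gene. Of 23 respiratory chain genes with several kept probes, none had probes of opposite sign in males, 5 did in females and 4 over both sexes, and none of those was called.

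Differences were fitted with limma 3.58.1 in R 4.3.3 with 1 mean per group over all 8 arrays and Benjamini-Hochberg adjustment over 15834 genes. Errors are standard errors, n is 2 mice per group, and the number of arrays limits the precision. The fit was tested on simulated data in 5 draws. Named genes were, per complex, up to 4 called members with the largest difference by genotype, up to 6 called in the interaction and by sex, and always the tissue isoforms with their partners and the Sdh genes. Other members are named to account for counts. A gene that the rule selects is not reported here. Of list genes, at most 4 called ones per list with the smallest p are named. The genes, lists and rules were chosen with earlier results of these data known. The normexp alternative used spot medians with background medians, because the arrays hold no mean signal column. Alternatives are given in the closing section.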

Additional observations from a re-analysis of the deposited data

Results flagged for a closer look

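Ndufa11 and Cox6b1 differed between the sexes in their response to Keap1 deletion. The female difference minus the male difference was 1.41 ± 0.23 for Ndufa11 (limma adjusted p = 0.049) and 1.27 ± 0.21 for Cox6b1 (adjusted p = 0.050, just under the threshold). Both lost the call with quantile scaling (1.34 and 1.16, adjusted p = 0.063 for both), with cyclic loess (1.32 and 1.11, adjusted p = 0.057 and 0.061) and when any array was left out.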

How the results depend on the processing

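With 2 mice per group, counts of calls moved widely. Among the alternatives, shares of all genes called are given above for quantile scaling and cyclic loess only. For the other alternatives, here and in the Results, a change in these genes cannot be told apart from a change in calls over all genes. Genes that fell in males numbered 52, against 13 with quantile scaling, 10 with cyclic loess (chosen after seeing the data), 83 with the shift to the array median and 1 with unshifted series matrix values, where 2, 2, 2 and 5 rose. They were 2 to 50 with 1 array left out, and 3, 2, 2 and 6 without AKP::Keap1 male 1, AKP::Keap1 male 2, AKP male 1 and AKP male 2. Over both sexes the 13 that fell became 69, 1, 8 and 3 with the median shift, unshifted values, cyclic loess and the slide as a random block (consensus correlation 0.235), and 6 to 17 with 1 array left out. They were 7, 6, 6 and 7 without AKP::Keap1 male 2, AKP::Keap1 female 2, AKP male 1 and AKP female 1. The 3 that rose became 9 unshifted. In females the 4 that rose were 7 unshifted, 7 with trended and robust variances and 1 in a fit to the 4 female arrays, and 1 to 3 with 1 array left out. The 0 that fell were 2 with quantile scaling and 1 with the median shift, cyclic loess or trended variances.

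The 2 interaction calls became 6 with normexp, 40 with the median shift, 1 unshifted, 5 with probes well above background on all 8 arrays and 12 with trended variances. They were 0 with quantile scaling, cyclic loess, no filter, probe means, the replicate block and each array left out. The 9 genes called by sex were 21, 35, 16, 19 and 0 with the median shift, unshifted values, the stricter filter, trended variances and the slide block, and 3 to 9 with 1 array left out.

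The median shift and the unshifted values moved the median of all genes over both sexes to -0.24 and 0.31. Median differences over both sexes under these 2 were -0.43 and 0.12 for complex I, -0.44 and 0.11 for complex II, -0.51 and 0.046 for complex III, -0.29 and 0.26 for complex IV, -0.45 and 0.11 for complex V, and -0.43 and 0.13 for all subunits. The complex II median was also -0.086 with quantile scaling, -0.066 with cyclic loess and -0.31 with probe means. For all subunits in males it was -0.25, -0.92, -0.059 and -0.23 with quantile scaling, the median shift, unshifted values and cyclic loess, and in the interaction 0.36, 1.0, 0.38 and 0.33. In females it ranged from 0.037 to 0.34 with 1 array left out.

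The fit with the replicate number as a replicate block called 52 genes lower in males and 15 over both sexes. Deviations of same-numbered arrays from their group means had correlations of -0.16 to 0.12. With 2 arrays per group, these do not settle whether the numbers pair the mice. Of 1800 values of named genes under alternatives, 1535 stayed on their side of the threshold, of which 84 changed sign without being called in either, 218 lost the call, 45 gained one and 2 others reversed: Cox6a1 in males (0.0094 unshifted) and Cox8b in males (-0.62 with normexp). Causes of these changes were not tested.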
